A study of Mus musculus with 8 samples.

Results

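The genes described here are the TAM receptors Tyro3, Axl and Mertk and the rest of the machinery by which phagocytes clear dying cells, a process called efferocytosis. They were taken by name from the deposited gene table and number 33 of its 30445 genes. They cover receptors, the molecules that bridge a receptor to a dying cell, the proteases that cut receptors off, engulfment signalling, cholesterol efflux and the "eat-me" signals of dying cells. All 33 were found once in the table and all 33 passed the filter on low counts.

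Hearts of C57 mice were profiled by poly(A) RNA sequencing 8 weeks after transverse aortic constriction, an operation that narrows the aorta and loads the left ventricle with pressure. There were 4 libraries with the genotype WT and 4 with the genotype Mertk knockdown; all 8 came from operated animals, so no unoperated heart was compared. Age, sex, the means by which Mertk was lowered and the cells in which it was lowered are not given in the sources used here and the labels do not tie the libraries to separate animals. What a p-value measures here is thus the spread between libraries, part of which may be technical.

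Efferocytosis starts when a dying cell exposes phosphatidylserine on its surface. Gas6 and protein S bind this lipid and in turn bind the TAM receptor tyrosine kinases, of which MERTK is the one best known on macrophages. Other receptors bind the lipid directly or through other bridges, signals through ELMO, DOCK1 and RAC1 reshape actin to take the cell in, and the cholesterol of the swallowed cell is exported by ABC transporters under the control of the liver X receptors (LXR). In the heart, resident macrophages use this machinery on dying cardiomyocytes and on the debris they shed.

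Total counts per library ran from 59287621 to 71571173. Cardiomyocyte markers were abundant in every library, with Tnnt2 between 4013 and 5650 CPM (counts scaled to a common library size by TMM, a normalization across libraries). Several libraries stood apart by markers of other tissues. Hepatocyte markers (10 genes) summed to 205 CPM in wildtype replicate 1 and to 144 to 213 CPM in the labelled knockdown libraries, but only to 7.17 to 10.2 CPM in wildtype replicates 2 to 4. Albumin, for example, was at 118 CPM in wildtype replicate 1 and at 0 to 3.83 CPM in the other wildtype libraries. None of the 10 passed the test between the groups (smallest edgeR adjusted p = 0.314), 2 passed at an unadjusted p under 0.05, and 6 were at 0 in at least 1 library. The atrial markers Myl4, Myl7 and Sln were high in 3 libraries only, with Myl7 at 134 and 57.5 CPM in wildtype replicates 3 and 4, at 197 CPM in labelled knockdown replicate 4 and at 0 to 0.604 CPM in the other 5. Nppa, the atrial natriuretic peptide, made up most of the sum of the 5 atrial markers in every library and was highest in wildtype replicate 2, at 2308 CPM. None of the 4 atrial markers tested passed. Macrophage markers (10 genes) summed to 348 and 369 CPM in wildtype replicates 2 and 4 and to 244 and 243 CPM in replicates 1 and 3, against 212 to 259 CPM in the labelled knockdown libraries. None of these 10 passed the test either, and 4 were lower at an unadjusted p under 0.05. In whole tissue, fewer cells of a type and less RNA per cell cannot be told apart.

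**Figure D1:**
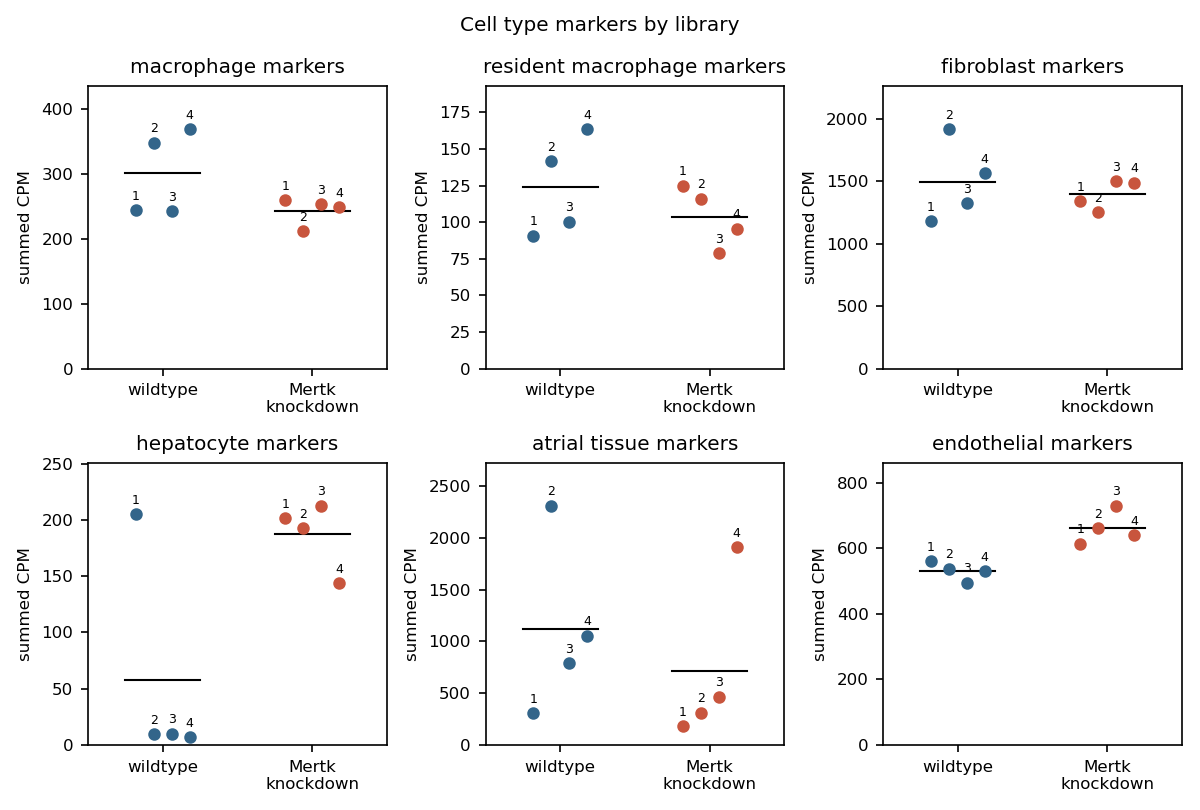
Summed CPM (vertical axis) of 6 marker lists in each library, with points numbered by replicate and a line at the group mean. Wildtype replicate 1 sits at 205 CPM for hepatocyte markers, with the labelled knockdown libraries and not with the other wildtype libraries, and wildtype replicates 2 and 4 are the highest libraries for macrophage markers.

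No gene of the efferocytosis machinery passed the test between the labelled groups. Of the 33 genes, 0 passed an edgeR adjusted p of 0.05 in either direction, where 0.647% of all 17787 tested genes did (115 genes; 49, or 0.275%, higher and 66, or 0.371%, lower in the labelled knockdown libraries). At an unadjusted p under 0.05, 2 were higher, Ptk2 and Abca1, and 0 were lower, a share of 6.06% against 12.4% of all tested genes. DESeq2 and limma on log2(FPKM + 1) also called 0 of the members they tested. Log2 fold changes, always labelled knockdown minus wildtype, were above 0 for 17 members and below 0 for 16. Their median was 0.04, and their median size was 0.15 against 0.19 over all tested genes. Only Panx1 was beyond 0.5 in size.

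The 95% intervals show what this absence of calls can mean. For 18 of the 33 genes, Mertk, Axl, Gas6, Pros1, Adam10, Adam17 and Rac1 among them, the whole interval lay within a 1.5-fold difference in either direction. For the other 15 it reached further, so a difference of that size in at least 1 direction was not excluded by the interval. These counts hold for the edgeR fit to all 8 libraries without a covariate and were not made for other settings. Over the settings the log2 fold change ran from 0.16 to 0.48 for Adam17. It ran from −0.21 to 0.22 for Axl and from −0.26 to 0.21 for Pros1. The widest intervals were those of 3 receptors at low levels, Adgrb1 at −2.52 to 2.01, Cd300lf at −1.54 to 1.13 and Megf10 at −1.34 to 1.29 on the log2 scale.

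**Figure D2:**
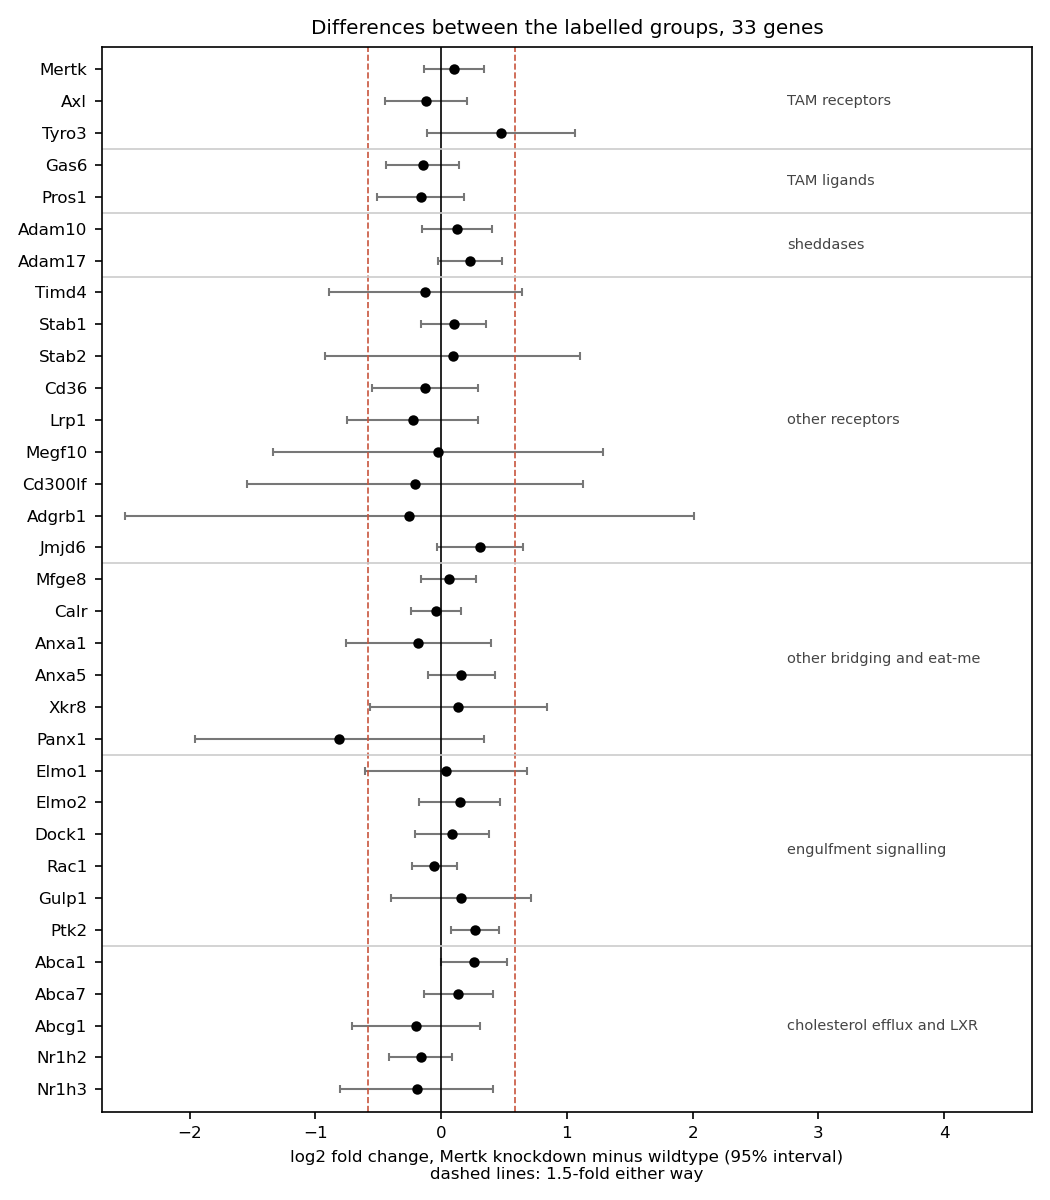
Log2 fold change (horizontal axis, labelled knockdown minus wildtype) of each of the 33 genes with its 95% interval from edgeR, grouped by role, with dashed lines at 1.5-fold either way. For 18 genes the interval stays between the dashed lines, and only the intervals of Ptk2 and Abca1 leave out 0.

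Mertk, the gene named in the genotype, is a receptor tyrosine kinase on chromosome 2 (ENSMUSG00000014361, mm10, 128698956 to 128802894, plus strand), with 19 merged exons in GENCODE M21. Its level in wildtype replicates 1 to 4 was 11.0, 10.4, 10.5 and 12.3 CPM, and in labelled knockdown replicates 1 to 4 it was 12.8, 12.3, 10.6 and 11.8 CPM. The highest library was a labelled knockdown one and the lowest a wildtype one, and the groups overlapped. Mertk had a log2 fold change of 0.10 with an SE of 0.11 (95% interval −0.14 to 0.34, edgeR adjusted p = 0.766). Permuting the labels exactly (two-sided, n = 4 each) gave p = 0.257 on log2(CPM + 0.1) and p = 0.314 on log2(FPKM + 1), where 4 libraries against 4 cannot go below 0.0286. Across the 20 alternative settings the log2 fold change stayed between 0.07 and 0.16. The count of Mertk thus did not separate the libraries by their labels, and directions are given by label only. A count over the whole gene also takes in reads from any exons that an altered allele leaves in place, and the labels do not name an altered part, so this is a check of Mertk transcript in the whole heart only.

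Set against the macrophage markers, Mertk was not distinguishable between the groups by the test chosen for it, but this depended on how the markers were summarised. Log2 CPM of Mertk minus the mean of the 10 markers was −0.16, −0.88, −0.35 and −0.71 in wildtype replicates 1 to 4 and 0.06, 0.22, −0.35 and −0.36 in the labelled knockdown replicates. The groups differed by 0.42 (two-sided exact permutation, n = 4 each, p = 0.143). With the median of the markers it was 0.44, and without C1qa, C1qb, C1qc and Cx3cr1 it was 0.48, each with p = 0.0286 by the same exact test, the smallest this design can give. On log2(FPKM + 1) the difference did not pass by the same test. None of these p-values is adjusted for the number of summaries tried. Among the markers Cx3cr1, the fractalkine receptor, stood apart. It was at 6.22 and 7.41 CPM in labelled knockdown replicates 3 and 4 and between 0.68 and 2.26 CPM in the other 6 libraries, while 9 of the 10 markers had a log2 fold change below 0.

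Axl and Tyro3, the other two TAM receptors, did not pass the test. Axl (chromosome 7, 25757273 to 25788705), a receptor kinase found on macrophages, endothelium and fibroblasts, was at 68.0, 113, 74.4 and 85.9 CPM in wildtype and at 77.9, 81.4, 78.9 and 76.2 CPM in the labelled knockdown libraries. All 4 labelled libraries fell inside the wildtype range, with coefficients of variation (SD over mean) of 23.5% in wildtype and 2.78% in the labelled group. Its log2 fold change was −0.12 (SE 0.15, edgeR adjusted p = 0.805), and 0.05 without wildtype replicate 2. Tyro3 (chromosome 2, 119797733 to 119818104), the TAM receptor best known from the nervous system, was at 1.32, 2.79, 1.46 and 2.34 CPM in wildtype and at 2.64, 3.04, 2.93 and 2.41 CPM in the labelled group. Wildtype replicates 1 and 3 were the 2 low libraries, and wildtype replicate 2 lay among the labelled libraries. Tyro3 reached a log2 fold change of 0.48 (SE 0.27, 95% interval −0.12 to 1.07, edgeR adjusted p = 0.524). Per length, Axl led the 3 receptors with a mean of 14.8 FPKM (fragments scaled by gene length and depth) over the 8 libraries, followed by Mertk with 2.40 and Tyro3 with 0.344.

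Neither bridging ligand of these receptors passed the test. Gas6, which binds all 3 receptors, was at 140, 184, 131 and 158 CPM in wildtype and at 121, 161, 134 and 137 CPM in the labelled knockdown libraries (log2 fold change −0.15, SE 0.13, edgeR adjusted p = 0.706). Pros1, encoding the anticoagulant protein S that binds Mertk and Tyro3, was at 16.01, 26.2, 17.0 and 21.9 CPM and at 18.7, 15.9, 18.9 and 18.9 CPM (−0.16, SE 0.16, edgeR adjusted p = 0.732). For both ligands the 2 highest wildtype libraries were replicates 2 and 4, and the groups overlapped. Gas6 was the third most abundant of the 33 genes per length, with 52.1 FPKM against 4.28 FPKM for Pros1.

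Adam17 and Adam10 are membrane proteases that cut receptors from the cell surface, and Adam17 is the enzyme known to shed MERTK. Adam17 (chromosome 12, 21323509 to 21373632) was at 22.6, 30.1, 24.1 and 28.4 CPM in wildtype and at 33.4, 33.3, 27.8 and 28.8 CPM in the labelled knockdown libraries. The 2 highest libraries were labelled knockdown replicates 1 and 2 and the 2 lowest were wildtype replicates 1 and 3. The log2 fold change of Adam17 was 0.23 (SE 0.11, 95% interval −0.02 to 0.49) and did not pass (edgeR adjusted p = 0.461). Adam10 had 0.13 (SE 0.13, edgeR adjusted p = 0.749), with values of 30.3 to 41.3 CPM in wildtype and 32.1 to 43.1 CPM in the labelled group. Exons of Adam17 overlap those of Iah1 on the other strand over 4.35% of their length, and Iah1 had a log2 fold change of −0.21.

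**Figure D3:**
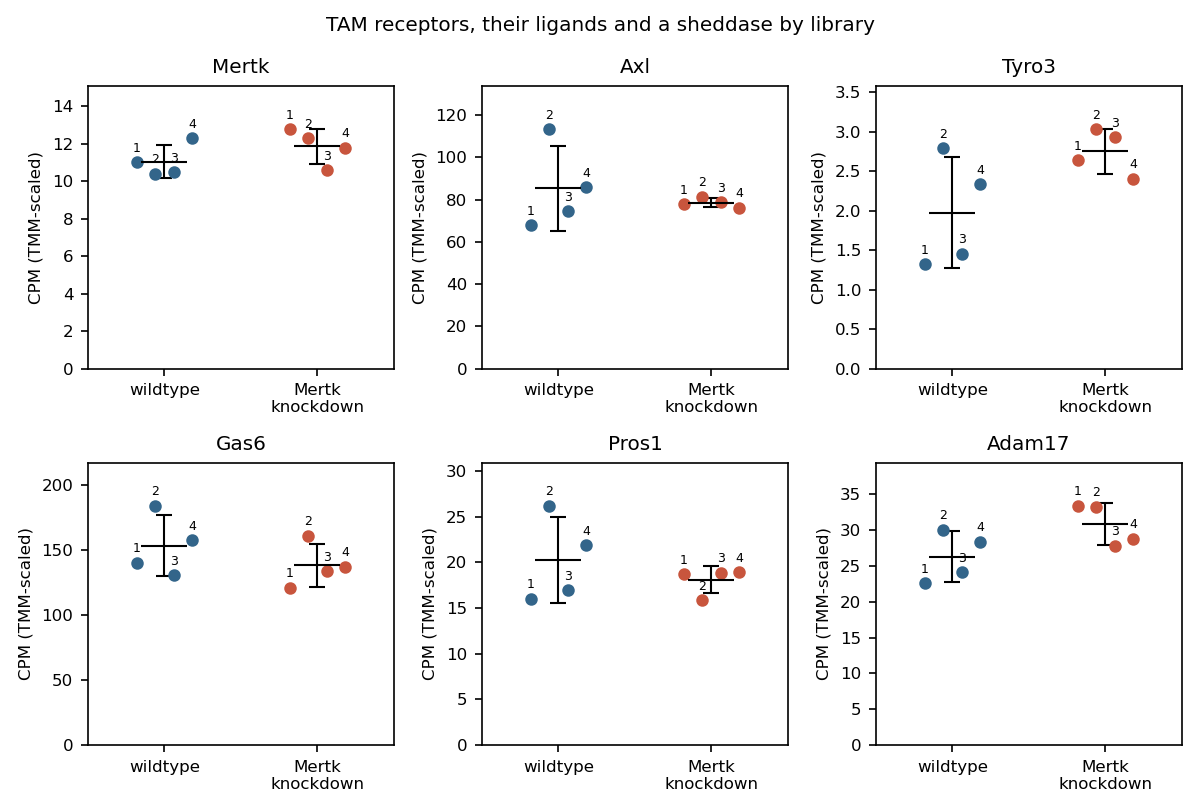
CPM (vertical axis, from 0) of the 3 TAM receptors, their 2 ligands and Adam17 in each library, with points numbered by replicate and bars at the group mean ± SD. The groups overlap in every panel, and Axl spans 68.0 to 113 CPM in wildtype but 76.2 to 81.4 CPM in the labelled knockdown libraries.

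Of the 9 other receptors, none passed and 6 had a log2 fold change below 0. Cd36, a scavenger receptor that also carries fatty acids into cardiomyocytes and endothelium, was by far the most abundant member at 266 FPKM. Its wildtype values of 1348, 807, 1373 and 883 CPM fell into a high and a low pair, and the labelled knockdown values of 1157, 1100, 914 and 864 CPM all lay inside that range (log2 fold change −0.13, SE 0.19, edgeR adjusted p = 0.848). Lrp1, a large endocytic receptor that binds calreticulin, was at 165, 375, 179 and 217 CPM in wildtype and at 195, 203, 191 and 210 CPM in the labelled group (−0.23, SE 0.23, edgeR adjusted p = 0.755). Wildtype replicate 2 alone was above 300 CPM there, and without it the log2 fold change of Lrp1 was 0.10.

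Stab1, a scavenger receptor of macrophages and endothelium that binds phosphatidylserine, ran from 51.9 to 69.5 CPM in wildtype and from 58.0 to 69.4 CPM in the labelled group (0.10, SE 0.12). Timd4, a phosphatidylserine receptor of resident macrophages, was at 1.29, 2.14, 1.15 and 3.38 CPM in wildtype and at 1.63, 2.28, 1.69 and 1.70 CPM in the labelled knockdown libraries (−0.13, SE 0.35). Stab2, best known from liver sinusoidal endothelium, was at 1.17, 0.287, 1.11 and 0.502 CPM in wildtype and at 0.631 to 0.995 CPM in the labelled group (0.09, SE 0.46). The list of Kupffer cell and liver sinusoid markers (7 found in the table, 3 tested, 0 called) summed to 1.45 to 6.59 CPM in wildtype and to 1.28 to 2.04 CPM in the labelled group, with 6 of the 7 at 0 in at least 1 library. Clec4f, the marker that defines Kupffer cells, was at or below 0.315 CPM everywhere.

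Jmjd6, first described as a phosphatidylserine receptor and later as a nuclear hydroxylase, was at 25.6, 20.8, 23.8 and 25.3 CPM in wildtype and at 36.6, 31.7, 21.2 and 28.9 CPM in the labelled knockdown libraries. Labelled knockdown replicates 1, 2 and 4 were above all wildtype libraries and replicate 3 was not (0.31, SE 0.15, edgeR adjusted p = 0.46). Its exons overlap those of Mettl23 on the other strand over 3.66% of their length, and Mettl23 had a log2 fold change of 0.26. Megf10, Cd300lf and Adgrb1 were each below 0.2 FPKM on average. Adgrb1, the receptor BAI1 of brain and muscle, had 0 counts in wildtype replicate 1, where a level of up to 0.0473 CPM would still be compatible with a count of 0, and at most 0.448 CPM elsewhere. Counting intervals and such floors cover counting error only.

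None of the 6 other bridging molecules and signals of dying cells passed the test. Calr, calreticulin, an "eat-me" signal when it reaches the cell surface, ran from 173 to 185 CPM in wildtype and from 158 to 191 CPM in the labelled knockdown libraries (−0.04, SE 0.09, 95% interval −0.24 to 0.16). Mfge8, which bridges phosphatidylserine to integrins, ran from 90.8 to 113 and from 97.6 to 116 CPM (0.06, SE 0.10). Of the phosphatidylserine-binding annexins, Anxa5 stood at a log2 fold change of 0.16 (SE 0.12) and Anxa1 at −0.18 (SE 0.26). Anxa1 was at 13.3, 29.8, 12.9 and 21.4 CPM in wildtype and at 14.9 to 19.0 CPM in the labelled group, which lay inside the wildtype range. Xkr8, the scramblase that exposes phosphatidylserine once caspases cleave it, had 0.14 (SE 0.32).

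Panx1, the channel that releases nucleotide "find-me" signals from dying cells, had the largest log2 fold change of the 33 in size, and it rested on wildtype replicates 2 and 4. The wildtype libraries were at 1.47, 7.20, 1.28 and 3.65 CPM and the labelled knockdown libraries at 1.9, 1.33, 2.1 and 2.44 CPM. Only these 2 wildtype libraries exceeded the labelled group. Panx1 thus had −0.81 on the log2 scale (SE 0.51, edgeR adjusted p = 0.581, 95% interval −1.96 to 0.34), and −0.14 without wildtype replicate 2.

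Engulfment signalling held the member nearest to a call. Ptk2 (chromosome 15, 73205102 to 73423212, minus strand) encodes focal adhesion kinase, which links integrins to the ELMO and DOCK1 pathway. It was at 27.0, 24.7, 22.2 and 24.4 CPM in wildtype and at 29.6, 31.3, 28.7 and 28.8 CPM in the labelled knockdown libraries. All 4 labelled libraries were above all 4 wildtype libraries, with means of 24.5 ± 1.96 and 29.6 ± 1.23 CPM (SD, n = 4 each). Ptk2 was the only one of the 33 whose groups did not overlap, where 8.07% of all tested genes did not (4.18% with the labelled libraries higher, 3.9% lower). Ptk2 had a log2 fold change of 0.27 (SE 0.09, 95% interval 0.08 to 0.46, unadjusted p = 0.0104, edgeR adjusted p = 0.225). Over the 20 alternative settings its adjusted p ran from 0.157 to 0.823 and its log2 fold change from 0.14 to 0.32. Markers of cardiomyocytes and endothelium moved the same way: 5 of 6 markers in each list had a log2 fold change above 0, 0 of either list passed, 2 cardiomyocyte and 4 endothelial markers were higher at an unadjusted p under 0.05, and the endothelial markers summed to 494 to 561 CPM in wildtype and 614 to 730 CPM in the labelled group. Their part in the difference of Ptk2 was not tested.

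The adaptors and the GTPase behind it did not pass. Elmo1 was at 6.36, 14.5, 5.14 and 9.49 CPM in wildtype and at 7.75 to 10.2 CPM in the labelled group (0.04, SE 0.29), and its relative Elmo2 ran from 15.8 to 22.9 and from 18.9 to 24.4 CPM (0.15, SE 0.14). Dock1, the exchange factor that ELMO proteins activate, had 0.08 (SE 0.13) and Gulp1, an adaptor of the receptors LRP1 and STAB1, 0.16 (SE 0.25). Rac1, the GTPase that drives the actin cup, had the narrowest interval of all 33 (−0.06, 95% interval −0.24 to 0.12), at 128 to 142 CPM in wildtype and 127 to 136 CPM in the labelled group. Exons of Daglb on the other strand cover 51.4% of the exon length of Rac1 in GENCODE M21. The sources used here do not say whether counting used strand, so reads of the 2 genes may be shared; Daglb itself averaged 10.03 CPM over wildtype libraries and 10.02 CPM over labelled ones.

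Cholesterol export and its regulators did not pass either, and the members did not point one way. Abca1, the transporter that loads cholesterol onto apolipoprotein A-I, was at 34.9, 28.3, 33.02 and 28.9 CPM in wildtype and at 41.2, 40.4, 30.2 and 38.4 CPM in the labelled knockdown libraries. Labelled knockdown replicate 3 fell among the wildtype libraries and the other 3 lay above them (log2 fold change 0.26, SE 0.12, unadjusted p = 0.0487, edgeR adjusted p = 0.399). Its relative Abca7, a transporter linked to phagocytosis, had 0.13 (SE 0.12). Abcg1, which exports cholesterol to HDL, was at 3.08, 6.52, 5.15 and 6.27 CPM and at 5.28, 4.58, 3.90 and 4.53 CPM (−0.20, SE 0.23).

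Nr1h3 and Nr1h2 encode the nuclear receptors LXR alpha and LXR beta. Nr1h3 was at 17.2, 7.75, 16.4 and 8.38 CPM in wildtype and at 13.03, 11.4, 10.3 and 8.69 CPM in the labelled group (−0.20, SE 0.27). Its wildtype libraries fell into the same high and low pairs as those of Cd36, and all 4 labelled libraries lay between them. Nr1h2 ran from 39.5 to 48.7 CPM and from 34.2 to 44.7 CPM (−0.16, SE 0.11, edgeR adjusted p = 0.61). Per length Nr1h2 was the more abundant receptor, at 11.2 against 4.15 FPKM.

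**Figure D4:**
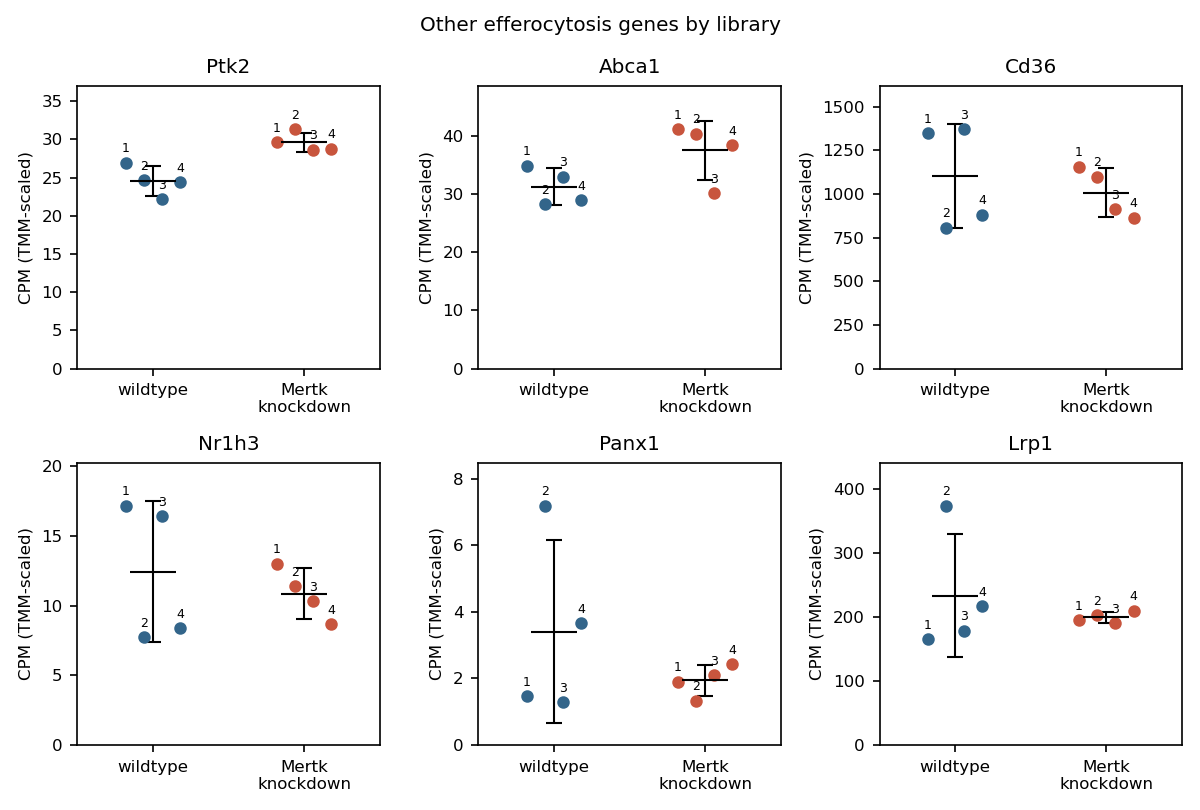
CPM (vertical axis, from 0) of Ptk2, Abca1, Cd36, Nr1h3, Panx1 and Lrp1 in each library, with points numbered by replicate and bars at the group mean ± SD. All 4 labelled knockdown libraries lie above wildtype for Ptk2, while Cd36 and Nr1h3 show wildtype replicates 1 and 3 above replicates 2 and 4, and Panx1 the reverse.

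Most of the spread of these genes lay among the wildtype hearts. The coefficient of variation was larger in wildtype than in the labelled group for 24 of the 33 members (72.7%), where 54.1% of all tested genes had the larger value in wildtype. The members' median was 21.98% for wildtype libraries and 12.4% for labelled ones, against 18.3% and 16.7% over all tested genes. In 18 of the 33 (54.5%) wildtype replicates 2 and 4 were both above replicates 1 and 3, where 24.7% of all tested genes showed this order. They included Axl, Tyro3, Gas6, Pros1, Adam10, Adam17, Timd4, Stab1, Lrp1, Anxa1, Anxa5, Panx1, Elmo1, Elmo2 and Abcg1. In 5 (15.2%) the order was the reverse, namely Cd36, Stab2, Abca1, Nr1h2 and Nr1h3, where 25.6% of all tested genes showed it. This order was noticed in the values and then counted, and it has no test. The same 2 wildtype libraries were the higher ones for the summed markers of macrophages (348 and 369 CPM), of resident macrophages (142 and 164 against 90.9 and 100.4 CPM) and of fibroblasts (1916 and 1563 against 1180.5 and 1322 CPM). The sum of the erythroid markers (817 and 760 against 631 and 614 CPM) had it too. So did Nppa (2308 and 854 against 306 and 450 CPM), and with it the sum of the 5 atrial markers. The sum of the Kupffer cell and liver sinusoid markers also had it, but its genes did not go together. Marco alone made up 4.05 of the 6.59 CPM in wildtype replicate 4 and was at 0 in the other wildtype libraries. Vsig4 followed the order, and Clec4g and Clec4f had the reverse (Clec4f 0.0603 and 0.0543 against 0.315 and 0.208 CPM). The atrial markers Myl4, Myl7 and Sln did not follow this order, being high in wildtype replicates 3 and 4. Summed hepatocyte markers had the reverse order, and the sums of cardiomyocyte, endothelial, platelet and adipocyte markers had neither. The share of counts from mitochondrially encoded genes had the reverse order as well (26.9% and 28.8% against 32.4% and 31.1%). The TMM factors followed the order (1.07 and 1.03 against 0.961 and 0.973). The part of these markers, of the mitochondrial share and of the TMM factors in the order was not tested.

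Wildtype replicate 1 was the only wildtype library with hepatocyte transcripts at a high level. It was the lowest wildtype library for Axl, Tyro3, Pros1, Lrp1, Adam10, Adam17, Cd300lf, Adgrb1, Calr and Abcg1. For Ptk2, Rac1, Abca1, Nr1h2, Nr1h3, Gulp1, Jmjd6 and Stab2 it was the highest. The shares of all tested genes for which it was lowest or highest were not counted. The 5 libraries at that level were this 1 wildtype library and the 4 labelled ones. Within them, 26 of the 33 log2 fold changes were above 0, in place of 17, with a median of 0.22. Of all genes tested there, 53.2% were above 0. All 33 values share that 1 wildtype library, so they do not bear separately on the direction. The spread there is that of the labelled group, taken to hold for the single wildtype library too. Tyro3 then had a log2 fold change of 1.06 (SE 0.36), Adam17 0.46 (SE 0.17), Elmo1 0.53 (SE 0.23), Axl 0.22 (SE 0.14), Abcg1 0.58 (SE 0.29) and Nr1h3 −0.65 (SE 0.22). The largest value was 6.70 for Adgrb1, which is among the 4 higher genes counted next. It rested on 0 counts in that wildtype library against 4 to 27 counts in the labelled ones. None of the 33 passed (smallest edgeR adjusted p = 0.40, for Tyro3), where 0.212% of all genes tested there did, and 4 were higher and 1 lower at an unadjusted p under 0.05 (15.2%, against 8.97% of all). With the hepatocyte marker score as a covariate in all 8 libraries, 27 of the 33 were above 0 (50.9% of all tested genes) and 0 passed, where 0.0731% of all tested genes did (smallest adjusted p = 0.384). That score was high in the 4 labelled libraries and in wildtype replicate 1 and low in the other wildtype libraries. This fit thus also rests largely on wildtype replicate 1 and does not bear separately on the direction.

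Per length, the 33 genes spanned a wide range of levels. There were 9 genes at 10 FPKM or more, 14 lay between 1 and 10 FPKM, and 10 were below 1 FPKM. Cd36 (266 FPKM), Calr (56.4), Gas6 (52.1), Anxa5 (36.1), Rac1 (27.0), Mfge8 (19.9), Axl (14.8), Nr1h2 (11.2) and Lrp1 (11.2) made up the most abundant group. The neighbours Nr1h2 and Lrp1 differed by less than the SD of either over the libraries. Mertk stood at position 20 of 33, beside Elmo2 (2.80) and Abca7 (2.32).

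**Figure D5:**
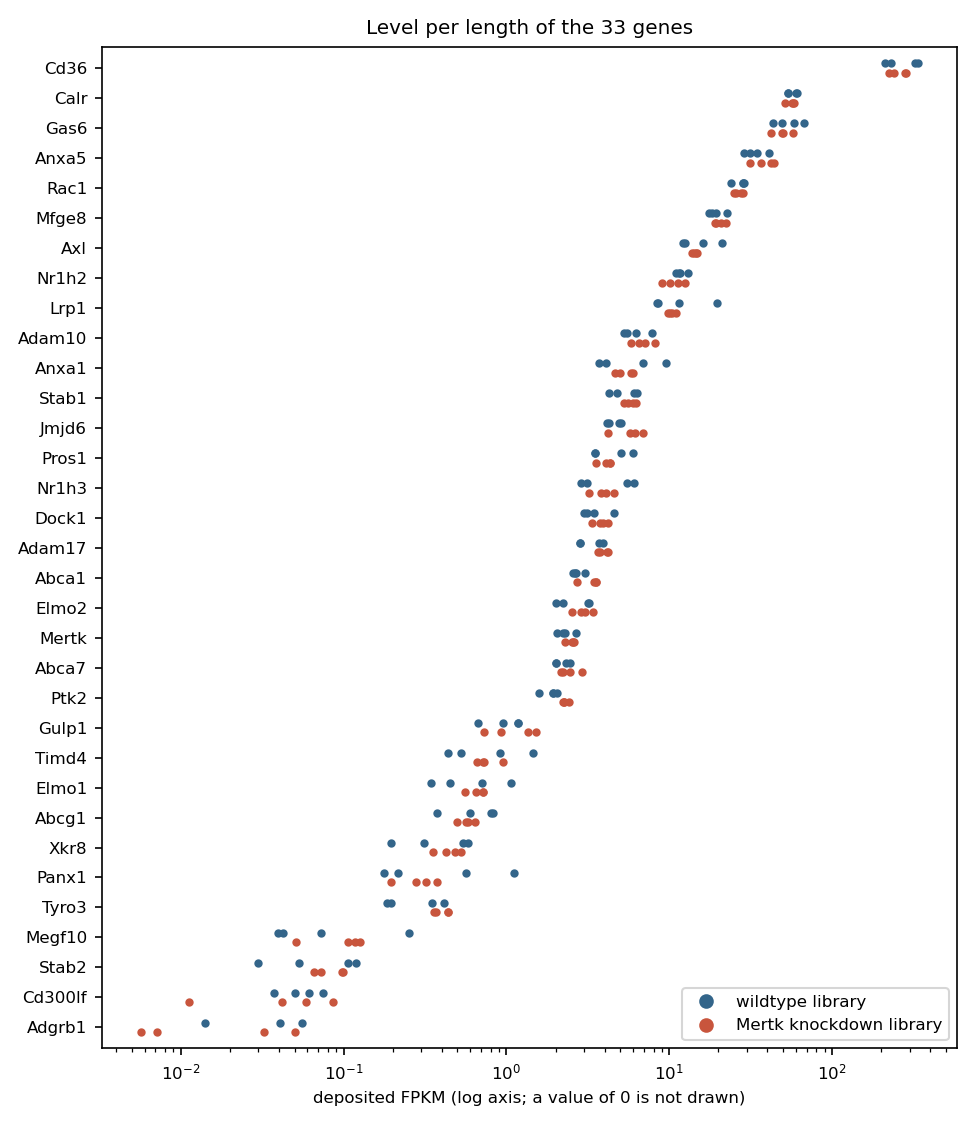
Deposited FPKM (horizontal log axis) of each of the 33 genes, ordered by mean, with 1 point per wildtype library and 1 per labelled knockdown library. Cd36 leads with a mean of 266 FPKM, Mertk has 2.40, and the points of the groups overlap for every gene but Ptk2.

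Other genes of the same pathways, 100 found in the table and 96 tested in 8 lists, gave 0 calls by edgeR as well. At an unadjusted p under 0.05, 8 were higher and 17 lower, 26.0% of the 96 against 12.4% of all tested genes. The lists were chosen with earlier results of these data known, so this share is not independent of the choice. DESeq2 called 3 higher and 2 lower of 93 (3.73% of all genes it tested): Cd93, Scd1 and Tspan15 higher, C1qb and C3 lower. Limma on log2(FPKM + 1) called 0. The groups did not overlap for 7 of the 96 with the labelled libraries higher and for 10 with them lower. Over all tested genes these shares were 4.18% and 3.9%. Among genes named below, this held for Cd93, Dock4, Scd1, Rhbdf2 and Tspan15 (higher). It also held for Msr1, C1qb, C3, P2ry2, Syk, Lamp2, Pltp and Timp3 (lower). Median log2 fold changes ran from −0.49 in the list of other bridging molecules to 0.03 in the list of genes that digest engulfed cells. Genes are named for each list by smallest p.

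Among other engulfment receptors (15 tested), Cd93, a receptor of endothelium and myeloid cells, was at 51.7, 51.2, 48.5 and 46.4 CPM in wildtype and at 60.2, 72.1, 105 and 96.5 CPM in the labelled group. The groups did not overlap, and the log2 fold change was 0.76 (SE 0.16, edgeR adjusted p = 0.0827). Msr1, a scavenger receptor of macrophages, had −0.69 (SE 0.23, edgeR adjusted p = 0.246). Of 9 other bridging molecules, 6 were below 0, and 3 of these 6, C1qa, C1qb and C1qc, also belong to the macrophage marker list, of which 9 of 10 were below 0. The part of those markers in the values of C1qb, Msr1 and Syk was not tested. C1qb, a subunit of the complement protein that tags dying cells, was at 29.1, 50.6, 29.7 and 49.5 CPM in wildtype and at 24.6 to 26.9 CPM in the labelled group (−0.63, SE 0.19, edgeR adjusted p = 0.197). Complement C3 had −0.59 (SE 0.18, edgeR adjusted p = 0.197). For C1qb and C3 every labelled library was below every wildtype library.

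Of the find-me and do-not-eat-me signals (10 tested, 7 below 0), S1pr1, a receptor for the chemoattractant sphingosine-1-phosphate, had −0.48 (SE 0.14, edgeR adjusted p = 0.191), and P2ry2, a receptor for released nucleotides, −0.28 (SE 0.10). Among 8 genes of phosphatidylserine exposure, the lipid flippase Atp8a1 had −0.43 (SE 0.17). Of 18 other signalling genes, Syk, a kinase below phagocytic receptors, was at 40.5 to 44.2 CPM in wildtype and at 27.9 to 37.0 CPM in the labelled group (−0.38, SE 0.10, edgeR adjusted p = 0.149), and Dock4 had 0.41 (SE 0.13).

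Genes that digest engulfed cells were the list nearest to 0, with 14 tested and a median size of 0.06. Lamp2, a lysosomal membrane protein, had −0.23 (SE 0.09), and Rubcn, which is needed for LC3-associated phagocytosis, 0.17 (SE 0.09). Among 14 other LXR targets and partners, the phospholipid transfer protein Pltp was at 22.7 to 26.4 CPM in wildtype and at 17.2 to 20.2 CPM in the labelled group (−0.35, SE 0.09, edgeR adjusted p = 0.159). Scd1, a fatty acid desaturase, ran from 16.4 to 18.3 and from 19.0 to 35.1 CPM (0.64, SE 0.18, edgeR adjusted p = 0.178), in the other direction. Of the partners of the sheddases (8 tested), 3 were above 0 and 5 below. Rhbdf2, iRhom2, which carries ADAM17 to the surface, ran from 11.7 to 14.6 CPM in wildtype and from 15.5 to 17.6 CPM in the labelled group (0.34, SE 0.10, edgeR adjusted p = 0.205), and Tspan15, a tetraspanin partner of ADAM10, from 4.56 to 5.80 and from 6.48 to 9.86 CPM (0.58, SE 0.16, edgeR adjusted p = 0.174). The groups did not overlap for either of them. Others in the list, chosen after their values were seen, had the opposite sign: the metalloprotease inhibitor Timp3 had −0.68 (SE 0.27), and Tspan17 and Tspan5, tetraspanin partners of ADAM10 as well, had −0.62 (SE 0.25) and −0.55 (SE 0.21). None of these 3 passed, and each was at an unadjusted p under 0.05.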

How the data were processed

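Per the file headers, the deposited table gives whole-number read counts and FPKM per gene and library (8 libraries). Per the submitters' processing notes the authors named mm10 as the build and, as tools, HISAT2 2.2.1, cutadapt 1.9, edgeR, DESeq2 and StringTie 2.1.6; roles, annotation release and use of strand are not given in the sources used here. Per the labels' protocols, RNA was selected with oligo(dT) and dUTP marked the second cDNA strand, a stranded protocol. The deposited counts were tested as they are with edgeR 4.0.16 in R 4.3.3 (glmQLFit with robust = TRUE, glmQLFTest, two-sided, TMM, filterByExpr, no covariate) over all 17787 genes that passed the filter, and p-values were Benjamini-Hochberg adjusted over all of them, with calls under 0.05. SE is the log2 fold change divided by the square root of F. DESeq2 1.42.0 and limma 3.58.1, the latter on log2(deposited FPKM + 1), were alternatives. Beyond such alternatives, FPKM served to compare levels between genes and in exact permutation tests of Mertk. The script was tested on simulated counts. The named genes were all 33 members and, from each pathway list, called genes or else the 2 with the smallest p. Of these, 1 is not reported here. Members and lists were chosen with earlier results of these data known. The labels do not say whether replicate numbers shared by the groups pair the libraries, and no pairing was used in the main fit. Within a group, every pair of libraries differed by more than sampling noise. Depth leaves a floor of 3 counts, 0.0407 to 0.052 CPM.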

Additional observations from a re-analysis of the deposited data

Results flagged for a closer look

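The libraries of each group were searched gene by gene for a single value far from the other 3 (Dixon's ratio above 0.829). Among 66 groups of 4 libraries, 3 such values were found. Chance flags about 1 in 20 groups, or 3.3 of 66, so this number is what chance gives. Pros1 in labelled knockdown replicate 2 was at 15.9 CPM, below the 18.7 to 18.9 CPM of the other 3. Timd4 in the same library was at 2.28 CPM, above the 1.63 to 1.70 CPM of the others. Calr in wildtype replicate 1 was at 172.7 CPM, below the 184 to 185 CPM of the other wildtype libraries.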

How the results depend on the processing

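No member was called in any of the 20 alternative settings, and Mertk stayed uncalled with a log2 fold change above 0 in all of them. Of the 654 member values in these settings, 56 had the other sign from the reported one, in 17 genes, and 60 moved by more than 1 SE; these values are uncalled on both sides, and 16 genes kept their sign. The number of genes called over the whole table, 115, was 604 by DESeq2, 56 by limma on log2(FPKM + 1) and 68 on log2(FPKM + 0.1), 24 with a replicate block, 13 with the hepatocyte marker score as a covariate, 42 in the 5 libraries with hepatocyte transcripts and 53 with the atrial marker score. Leaving out 1 library gave 44 to 265 calls, the highest without wildtype replicate 1 and the lowest without labelled knockdown replicate 3. RLE and upper quartile factors, no filter, no robust fit and no mitochondrial genes gave 110 to 124. The causes were not tested. The labels do not say whether replicate numbers shared by the groups pair the libraries. Deviations of same-numbered libraries correlated at 0.07, −0.03, −0.03 and 0.20, the last being the largest value between the groups. Not every library correlated best with its own number. Such correlations cannot decide whether the libraries were paired. Mertk relative to the macrophage markers became called with the median of the markers (0.44) and without C1qa, C1qb, C1qc and Cx3cr1 (0.48). Both had p = 0.0286 by an exact test. On log2(FPKM + 1) it stayed uncalled. Without 1 library the difference was 0.30 to 0.54 and uncalled. Paired by number (replicate block) it was 0.42, higher in the labelled library of all 4 pairs. The exact p by sign flips was 0.125, the smallest that 4 pairs allow, so this test could not reach a call.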
